A study of Macaca fascicularis with 44 samples.

Results

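The 6 primordial germ cell genes described here are SOX17, TFAP2C, DND1, DPPA3, DAZL and DDX4. They were chosen by name as rows of the gene count table, which holds 21834 genes, and all 6 were found in it. The counts come from 3682 single cells in 44 libraries. The cells were taken from 9 wild-type cynomolgus monkey (Macaca fascicularis) embryos made by sperm injection into oocytes, picked as expanded blastocysts on embryonic day (E) 6 to E7 and then grown in vitro. Extraembryonic tissue was removed at dissection, per the labels, so the cells are a sample of what was left. Even so, by the deposited annotation most of the cells are of extraembryonic classes. These are extraembryonic mesenchyme (EXMC, 1185 cells), Extraembryonic Mesoderm (474) and the trophoblast classes EVT (566), CTB (549) and STB (111). The groups are days of culture without a control arm: E16 with 7 libraries, E18 with 5, E20 with 6, E21 with 5, E22 with 6, E23 with 6, E24 with 2 and E25 with 5. By the deposited annotation E16 holds 2 embryos (E16-1 and E16-2) and each later day holds 1, so day and embryo cannot be told apart after E16, and libraries of a day share an embryo. Embryo, not library, is the independent unit, so p-values over libraries are too small. The other 2 libraries, 26 and 27, carry 1 day in the title and another in the time label, and enter no comparison between days.

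Primordial germ cells are the founders of eggs and sperm. In primates they are specified around gastrulation, when signals such as BMP4 and WNT act on epiblast or early amnion cells and switch on SOX17 and TFAP2C, which act with PRDM1 while NANOG is kept and SOX2 is lost. DND1 and DPPA3 belong to the early program and DAZL and DDX4 to a later one, after the cells have reached the gonad. Only the combination marks a germ cell: SOX17 also serves in endoderm and endothelium, TFAP2C in trophoblast and amnion, and NANOG in pluripotent epiblast.

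The libraries held between 4393315 and 30568931 counts, and a cell held a median of 110457.5. Classes are those of the deposited annotation, which has no germ cell class. Summed marker genes were highest in the class that bears their name for endoderm (22095 CPM in Endoderm; CPM is a gene's counts scaled to a common total) and epiblast (725 CPM in EPI). The class STB led for syncytiotrophoblast (41921 CPM), EVT for extravillous trophoblast (4673 CPM) and EXMC for mesenchyme (21991 CPM). Trophoblast markers stood at 2529 CPM in the class CTB, behind STB. The ectoderm list was highest in Non-neural ectoderm (880 CPM), but Neural ectoderm had 163 CPM of it, below STB with 393 CPM. The list of 10 germ cell markers, which holds the 6 genes, was highest in EXMC (633 CPM), ahead of Endoderm (586 CPM) and EPI (414 CPM), and 619 of the 633 CPM in EXMC were PDPN. The class named Blood cells had the highest sum of the 2 blood genes (30.2 CPM), all of it from TAL1, a factor of blood and endothelium found in 11 of its 17 cells. The globin gene HBZ had no count in any class, and the endothelial genes PECAM1 and KDR were found in all 17 cells, so the class is called here by its deposited name only. Whether the counts are of unique molecules is not given in the sources used here, so the intervals below cover counting error only. The classes were built from the same cells, and cells of a library are not replicates, so differences between classes are described without a test.

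TFAP2C was found in 1090 of the 3682 cells (29.6%), SOX17 in 233, DND1 in 97, DAZL in 84, DPPA3 in 72 and DDX4 in 64, against 233 cells for NANOG. A cell counts as holding a gene from 1 count on. Each gene had its own pattern over the 12 classes. Levels are compared between classes within a gene, never between genes. They are counts of all cells of a class divided by their total, in CPM, over the 42 libraries with a day, with exact Poisson intervals. Shares of cells are over all 44 libraries, with exact binomial intervals, both at the 95% level.

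**Figure D1:**
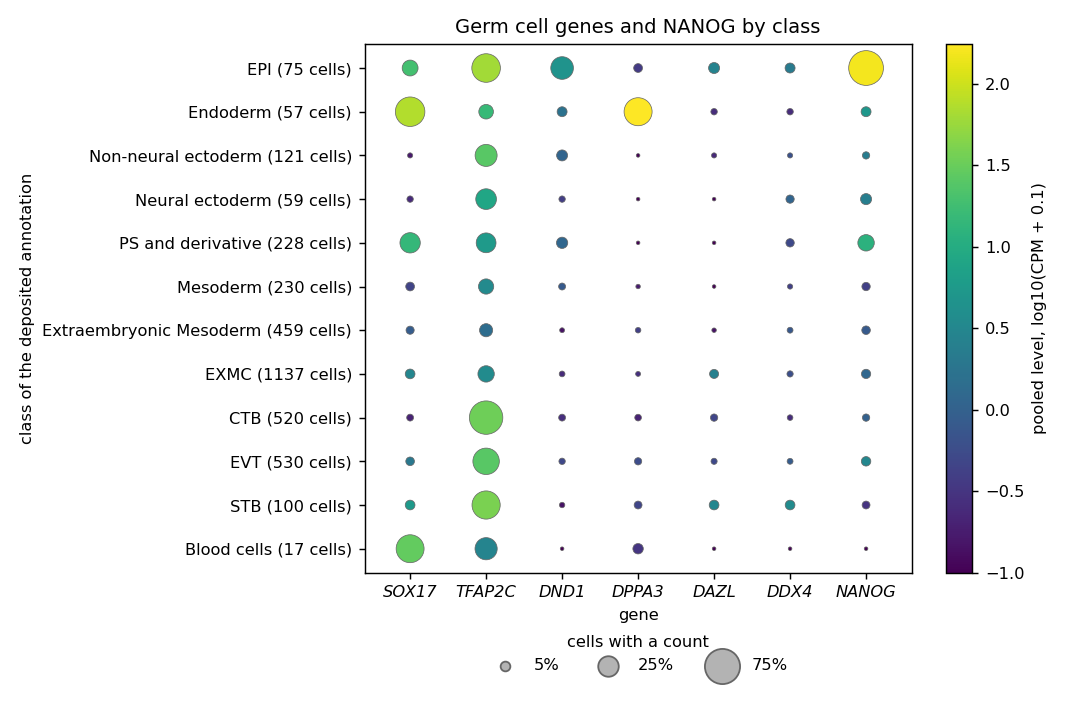
Each dot is 1 gene (columns) in 1 class (rows, with the number of cells in the 42 libraries). Colour gives the pooled level as log10(CPM + 0.1) and area grows with the share of cells with at least 1 count. SOX17 and DPPA3 are highest in Endoderm, NANOG and DND1 in EPI, and TFAP2C in EPI and the trophoblast classes STB, CTB and EVT.

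SOX17 encodes an HMG-box factor that starts the germ cell program in primates and also directs endoderm. It was highest in Endoderm cells, at 74.2 CPM (67.7 to 81.2), with a count in 33 of 62 cells (53.2%, 40.1 to 66.0). The class named Blood cells followed with 29.4 CPM (24.7 to 34.7) and 8 of 17 cells, then EPI with 18.96 CPM (16.8 to 21.3) and 11 of 79 cells, then the class PS and derivative (PS below) with 14.4 CPM (13.03 to 15.8) and 56 of 228 cells. Both of the last rest on few strong cells. In EPI 1 cell of E24 held 107 of the 289 counts, and without its library, 21, the EPI level was 12.2 CPM, below PS. In PS 1 cell held 99 of the 411 counts. In the 2 ectoderm classes SOX17 was at background, 1 cell of 121 in Non-neural ectoderm and 1 of 59 in Neural ectoderm, each with a single count. CTB cells, which should lack the gene, had it in 12 of 549 (2.19%) at a median total of 169543 counts, against 85414 in Endoderm and 176375 in EPI, so shares near that value are not read as expression.

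The SOX17 counts of a class came unevenly from the embryos. Endoderm cells had 59.5 CPM in E16-1 (1 cell), 84.6 CPM in E18, 33.6 CPM in E21, 145 CPM in E22, 8.60 CPM in E23, 60.5 CPM in E24 and 40.2 CPM in E25, over all 44 libraries. Thus E22, with 7 of 8 cells positive, stood above the others and E23, with 2 cells, below. PS cells with SOX17 came from E16 alone. The 4 libraries of E16-1 with at least 10 PS cells had 12.7, 6.11, 15.4 and 27.7 CPM, and the 3 of E16-2 had 1.21, 0 and 8.05 CPM. The E16-1 and E16-2 libraries overlapped, with the 3 highest values in E16-1. In EXMC the 3 E16-2 libraries had 11.05, 27.8 and 0.264 CPM and held 379 of the 473 SOX17 counts of the class. The mean over 28 libraries was 2.05 ± 5.61 CPM (SD), and 1.09 CPM without library 6. The SOX17-positive EXMC cells also held the gastrulation genes MIXL1 and EOMES more often than EXMC cells without SOX17, with MIXL1 in 31 of 59 against 119 of 1126 and EOMES in 22 of 59 against 57 of 1126. These cells differ in embryo too, since 33 of the 59 come from E16-2, against 155 of the 1126. Within E16-2, MIXL1 was found in 25 of 33 SOX17-positive against 79 of 155 SOX17-negative EXMC cells, and EOMES in 22 of 33 against 46 of 155. In the other embryos MIXL1 was found in 6 of 26 against 40 of 971, and EOMES in 0 of 26 against 11 of 971. The median total was 190557 counts in the SOX17-positive against 110412 in the SOX17-negative EXMC cells of E16-2, and the part of depth was not tested. In the class named Blood cells, the SOX17-positive cells held the endothelial SOX genes SOX18 (6 of 8, against 2 of 9 without SOX17) and SOX7 (6 of 8, against 4 of 9).

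TFAP2C encodes an AP-2 factor that works with SOX17 in germ cells and is used on its own in trophoblast and amnion. EPI had the highest pooled level, 63.1 CPM (59.2 to 67.2), ahead of STB with 39.1 CPM (36.6 to 41.7) and CTB with 33.8 CPM (32.7 to 34.9). Over libraries with at least 10 cells, CTB averaged 35.1 ± 12.8 CPM and EVT 27.9 ± 13.7 CPM (SD, n = 21 libraries each), so these 2 classes do not differ beyond their spread. Non-neural ectoderm averaged 29.4 ± 14.5 CPM (SD, n = 6), within the same range, and Neural ectoderm 8.02 ± 5.2 CPM (SD, n = 3). PS had 5.97 ± 3.53 CPM (SD, n = 7), Mesoderm 3.88 ± 4.25 CPM (SD, n = 7), EXMC 2.84 ± 2.91 CPM (SD, n = 28) and Extraembryonic Mesoderm 1.26 ± 1.45 CPM (SD, n = 18), all overlapping. By share of cells CTB led with 378 of 549 (68.9%), ahead of STB with 55 of 111, EPI with 37 of 79 and EVT with 246 of 566. Of the 9449 TFAP2C counts, 3916 lay in CTB, 2218 in EVT and 932 in STB. Within EPI the level ran from 5.87 CPM in E24 (1 cell) and 9.96 CPM in E25 to 160 CPM in E23, where all 8 EPI cells held the gene.

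DND1 encodes an RNA-binding protein that protects germ cell transcripts and, in mouse, is needed for germ cell survival. Its counts were few. EPI was highest with 4.53 CPM (3.52 to 5.73) and 24 of 79 cells (30.4%, 20.5 to 41.8). Endoderm had 1.55 CPM (0.744 to 2.86), PS 1.08 CPM (0.737 to 1.54) and Non-neural ectoderm 1.02 CPM (0.571 to 1.68), with overlapping intervals. No other class passed 1 CPM, and CTB, at nearly the same depth as EPI, had DND1 in 12 of 549 cells. The EPI share does not rest on 1 embryo. DND1 was found in 11 of 23 EPI cells of E18, 4 of 15 of E21, 5 of 15 of E25, 3 of 8 of E16-1 and 1 of 8 of E23, and in none of the 5, 3 and 2 EPI cells of E16-2, E22 and E24.

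DPPA3 encodes a small nuclear protein that guards DNA methylation in eggs and marks early germ cells in mouse. Of its 1251 counts in the 42 libraries, 1132 (90.5%) lay in Endoderm. The Endoderm level was 176 CPM (166 to 186), and no other class passed 0.472 CPM. By cells the gene was found in 27 of 62 Endoderm cells (43.5%, 30.99 to 56.7), 3 of 79 EPI cells, and none of 228 PS, 121 Non-neural ectoderm and 59 Neural ectoderm cells. Those zeros allow shares of up to 1.32%, 2.48% and 5.08% (3 cells of each total).

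Within Endoderm, DPPA3 followed the embryo. In E18 it was found in 23 of 26 cells, with a pooled level of 391 CPM and between 1 and 242 counts in the positive cells. No cell of the 18 in E21 or of the 8 in E22 had a count. The single Endoderm cell of E16-1 held 17 counts, 1 of the 2 cells of E23 held 11, and 2 of the 5 cells of E25 held 5 and 46 counts. E18 stands alone among the embryos with more than 5 Endoderm cells, and without it the level in the 42 libraries was 21.1 CPM. The median total of the Endoderm cells was 85414 counts in E18, 108046.5 in E21 and 165173 in E22, so the cells of E18 were not the deeper ones.

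The DPPA3-positive Endoderm cells differed in other genes as well. DPPA5, a gene of pluripotent and germ cells, was found in 17 of the 27 positive cells against 2 of the 35 without DPPA3. The chemokine receptor CXCR4 stood at 690 CPM against 115 CPM, the Nodal and BMP antagonist CER1 at 2540 CPM against 403 CPM, and ZIC2 at 333 CPM against 41.7 CPM. CER1 was found in a minority of the cells of either group. It reached 2070 counts in 1 DPPA3-positive cell, 1161 in another and 809 in 1 cell without DPPA3. The lipid carrier APOB was found in 4 of 27 against 20 of 35 and stood at 42.8 CPM against 1997 CPM, and TTR at 3497 CPM against 11217 CPM. SOX17 was found in 14 of 27 against 19 of 35 cells, and NANOG was found in 2 of 27 against 1 of 35. Since 23 of the 27 positive cells come from E18, these differences cannot be told apart from differences between embryos. Across all classes, 22 of the 72 DPPA3-positive cells also held SOX17, 3 held DND1, 5 held DAZL and 1 held DDX4.

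**Figure D2:**
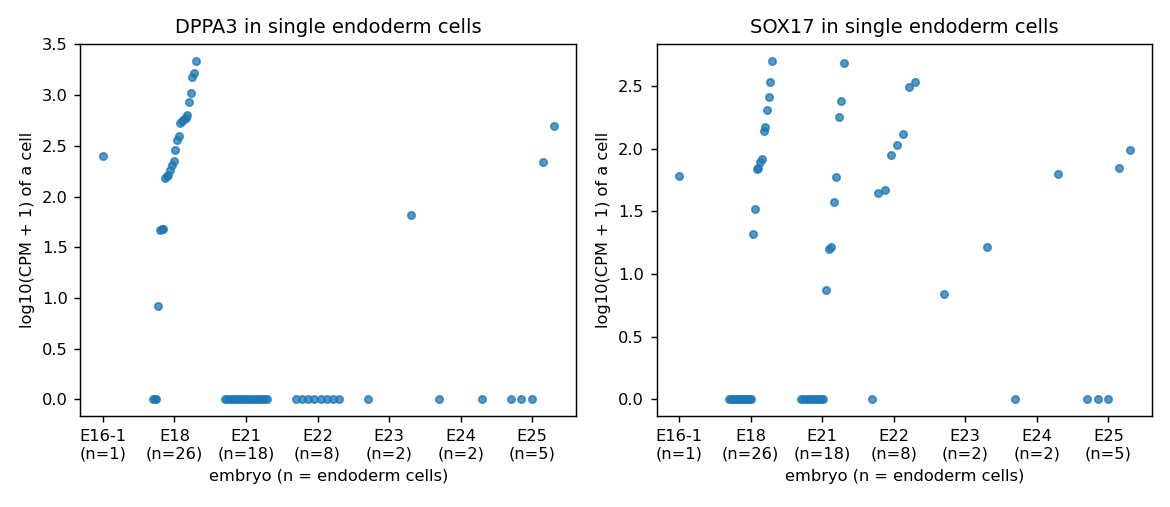
Each point is 1 Endoderm cell, placed by embryo (x, with the number of cells) and by log10(CPM + 1) of DPPA3 (left) or SOX17 (right). DPPA3 was found in 23 of 26 cells of E18 and in none of the 18 cells of E21 and 8 of E22, while SOX17 was found in cells of every embryo shown.

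DAZL encodes an RNA-binding protein that licenses germ cells for later development. It was found in 49 of 1185 EXMC cells (4.14%), 13 of 549 CTB, 8 of 566 EVT, 5 of 111 STB and 5 of 79 EPI cells, and in none of 228 PS, 231 Mesoderm and 59 Neural ectoderm cells. Its counts lay mostly in E18 and E23. EXMC of E18 held 299 of the 584 counts, spread over 38 of 146 cells and all 5 libraries, with 26 counts in the highest cell. The EXMC mean was 3.72 ± 8.43 CPM (SD, n = 28 libraries), and 1.23 CPM without E18. In E23, 1 EXMC cell held 64 of 78 counts and 1 STB cell 58 of 70. No cell of E16-1, E20, E22 or E24 had a count of DAZL. The DAZL-positive EXMC cells held the collagen gene COL3A1 throughout, at 19302 CPM against 13626 CPM in the EXMC cells without DAZL. NANOG was found in 4 of 49 against 51 of 1136.

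DDX4 encodes the germ cell RNA helicase known as Vasa, which in primates appears after germ cells reach the gonad. It was the rarest of the 6, with a count in 64 cells, 34 of them with a single count. The highest pooled level was 3.44 CPM (2.74 to 4.27) in STB, where 1 cell of E20 held 57 of 82 counts. Without its library, 36, the STB level was 1.11 CPM. EPI had 2.10 CPM (1.44 to 2.96) from 4 of 79 cells, and no other class passed 1 CPM. In EVT of E20 a single cell held 57 of 59 counts. DDX4 and DAZL met in 5 cells.

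Over days, the level of each gene in all cells of a library depends on which classes were caught, and fewer cells of a class cannot be told apart from less RNA per cell. SOX17 was higher at the start of the series. The 7 libraries of E16 ran from 3.10 to 26.7 CPM with a median of 10.2, and those of E18 had 14.1, 8.44, 6.93, 4.91 and 0 CPM. From E20 on the day means were 1.34 ± 2.22 in E20 (n = 6), 2.37 ± 2.33 in E21 (n = 5), 3.91 ± 3.89 in E22 (n = 6), 0.510 ± 0.501 in E23 (n = 6), 6.83 ± 9.56 in E24 (n = 2) and 0.779 ± 0.779 CPM in E25 (SD, n = 5). Each later day but E23 and E25 has a library above the lowest of E16, so the groups overlap.

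TFAP2C levels per library had no single direction over the days. They were between 19.7 and 38.4 CPM in E23, between 3.07 and 12.4 CPM in E21 and between 4.31 and 9.91 CPM in E22. The ranges of E22 and E23 do not overlap. These days also differ in the cells caught, with 146 EVT and 122 CTB cells in E23, against 9 EVT and 12 CTB cells in E22. DPPA3 had 15.7, 34.7, 16.9, 14.8 and 0.425 CPM in the 5 libraries of E18, and no library of another day passed 7.25 CPM. DAZL was found in all 5 libraries of E18, between 4.03 and 8.08 CPM, in 5 of the 6 of E23, up to 6.15 CPM, and in none of E20, E22 and E24. DND1 and DDX4 stayed at or under 3.03 CPM in every library.

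**Figure D3:**
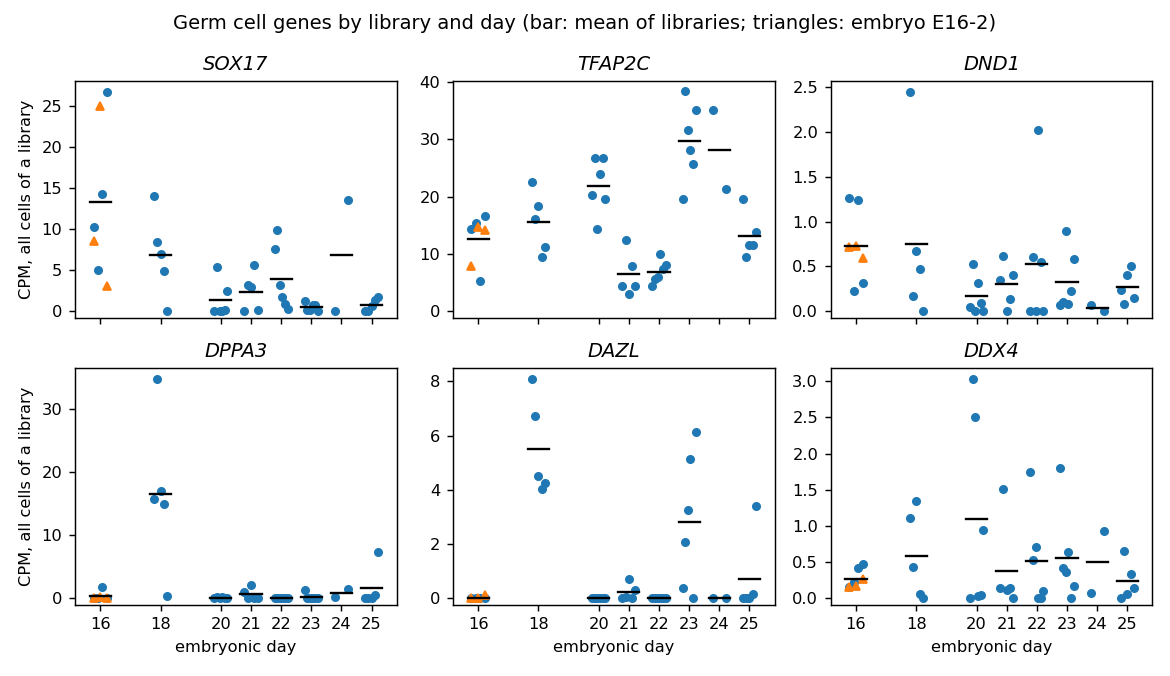
Each point is 1 library with a day: embryonic day on the x axis and CPM over all its cells on the y axis, 1 panel per gene with its own scale. Bars are the means of the libraries of a day and triangles are embryo E16-2. SOX17 is highest in E16, DPPA3 and DAZL in E18, and TFAP2C in E23 and E24.

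The slope with day was tested on counts summed per library with edgeR's quasi-likelihood test and Benjamini-Hochberg adjustment over all genes. Of the 6 genes only SOX17 and TFAP2C had counts enough to be tested over all cells. SOX17 fell by 0.33 ± 0.10 (SE) log2 units per day (adjusted p = 0.0194, 42 libraries), and TFAP2C had a slope of 0.07 ± 0.04 (adjusted p = 0.285). NANOG had a slope of -0.14 ± 0.12 (adjusted p = 0.440). In that fit 18.5% of the 13174 genes tested passed, 8.25% as higher and 10.2% as lower with day, so 1 of 2 is no result about the 6 genes. The SOX17 call was lost without the E16 libraries (slope -0.23, adjusted p = 0.422), with a term for the code of the library (-0.31, adjusted p = 0.450) and with counts summed per embryo (-0.29, adjusted p = 0.446). At E16, 411 of the 864 SOX17 counts lay in PS cells, a class whose 228 cells are all but 2 from E16, and 379 in EXMC. Within classes only TFAP2C could be tested, and it passed in none: its slope was -0.06 ± 0.08 in EXMC (adjusted p = 0.839, with 1.73% of genes called, 0.82% higher and 0.911% lower), 0.09 ± 0.05 in CTB (adjusted p = 0.302, with 3.36% called, 1.77% higher and 1.59% lower) and 0.12 ± 0.07 in EVT (adjusted p = 0.312, with 6.88% called, 4.27% higher and 2.61% lower). In Extraembryonic Mesoderm, where 2.12% of genes were called, 0.642% higher and 1.48% lower, none of the 6 had enough counts.

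The slopes of other genes of the germ cell program were computed over all cells and stand beside a median slope of 0.0032 log2 units per day over all genes tested. Of 7 tested pluripotency genes that germ cells share with epiblast, 4 fell and none rose, with a list median of -0.26: KHDC3L (-0.84 ± 0.12), TDGF1 (-0.29 ± 0.08), SALL4 (-0.27 ± 0.05) and DPPA4 (-0.26 ± 0.06). Of 6 epiblast genes that are low in primate germ cells, 3 fell and none rose (median -0.20), among them the DNA methyltransferases DNMT3B (-0.26 ± 0.05) and DNMT3A (-0.11 ± 0.03). Of 9 signals of germ cell specification and their early targets, 5 fell and none rose (median -0.13), led by EOMES (-0.79 ± 0.13), MIXL1 (-0.52 ± 0.12), the KIT ligand KITLG (-0.22 ± 0.07) and BMP4 (-0.13 ± 0.05). The largest of these slopes follow a drop after E16 and not a steady fall. EOMES averaged 62.8 CPM in E16 and at most 3.54 CPM on any later day, and KHDC3L 34.9 CPM and at most 1.01 CPM. MIXL1 averaged 248 CPM in E16, 58.7 CPM in E24, where its highest library had 117 CPM, and at most 3.15 CPM on the other days. The adjusted p-values of all genes named in this paragraph lay between 3.8e-06 and 0.0378 by edgeR. These counts stand beside 10.2% of all tested genes lower and 8.25% higher with day. With counts summed per embryo no gene passed over all cells (0 of 15835 by edgeR, with 1543 at an unadjusted p under 0.05), so every list call over all cells given here and in the next paragraph was lost.

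The lists nearer to the germ cell itself were mixed. Of 8 early germ cell factors 2 rose, the pluripotency factor KLF4 (0.36 ± 0.09) and the chromatin factor ARID5B (0.11 ± 0.02), and TRIM28 fell (-0.17 ± 0.03), while the other 5 did not pass, with slopes of -0.15 for PRDM1, -0.06 for PRDM14, 0.15 for TFAP2A and -0.12 for SOX15 among them. Of 7 surface genes, EPCAM rose (0.14 ± 0.04), and ALPL (-0.27 ± 0.07) and the migration receptor CXCR4 (-0.23 ± 0.07) fell. Of 7 later RNA-binding, piRNA and meiosis genes with counts enough, GTSF1 rose (0.30 ± 0.09). Of 10 genes of epigenetic reprogramming 4 fell, UHRF1 (-0.18 ± 0.04), EHMT2 (-0.14 ± 0.03), PRMT5 (-0.10 ± 0.02) and WDR77 (-0.10 ± 0.02). With SOX17, FOXA2 fell (-0.43 ± 0.13), 1 of 10 endoderm and endothelium genes. Of 11 trophoblast and amnion genes CDX2 (-0.62 ± 0.12) and TEAD4 (-0.11 ± 0.04) fell. CDX2 averaged 153 CPM in E16, 24.2 CPM in E22 and at most 6.46 CPM on the other days. Within classes the lists gave few calls, with adjusted p-values between 0.00346 and 0.0416 by edgeR. In EXMC MIXL1 fell (-0.61 ± 0.12). In CTB EPCAM rose (0.18 ± 0.04) and the endothelial cadherin CDH5 fell (-0.24 ± 0.05). In EVT BMP4 (0.37 ± 0.09), KDR (0.52 ± 0.13), PDPN (0.40 ± 0.12), GTSF1 (0.47 ± 0.10) and VTCN1 (2.03 ± 0.46) rose and the keratin gene KRT7 fell (-0.33 ± 0.07). In Extraembryonic Mesoderm BMP4 (0.48 ± 0.10), ASZ1 (3.20 ± 0.64), KRT7 (0.94 ± 0.21) and TDG (0.57 ± 0.13) rose and KDR fell (-0.70 ± 0.16). BMP4 thus rose within 2 classes while it fell over all cells, and KRT7 and KDR were called in opposite directions in EVT and Extraembryonic Mesoderm. The calls in EXMC, CTB and EVT were likewise lost with sums per embryo.

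Co-detection with NANOG asks which of the 6 genes lie in cells that hold a pluripotency gene. In EPI NANOG was found in 59 of 79 cells, and these are not spread evenly: all 23 EPI cells of E18 and all 15 of E21 held NANOG, against 11 of 15 in E25, 3 of 3 in E22, 2 of 2 in E24, 4 of 8 in E16-1, 1 of 8 in E23 and none of 5 in E16-2. The median total was 173281 counts in NANOG-positive and 190158.5 in NANOG-negative EPI cells, so pooled over embryos the NANOG-negative cells were not the shallower ones. Within embryos depth differed in both directions. The NANOG-negative cells were shallower in E25, with 67700.5 against 194214 counts in the NANOG-positive ones. They were deeper in E16-1, with 266673 against 177369, and in E23, with 227796 against 77528 in 1 cell.

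Pooled over embryos, SOX17 and DND1 were found in a larger share of NANOG-positive EPI cells, and TFAP2C in a larger share of NANOG-negative ones. SOX17 was found in 11 of 59 NANOG-positive cells (18.6%, 9.69 to 30.9) and in 0 of 20 NANOG-negative cells, which allows a share of up to 15.0%. DND1 was found in 21 of 59 (35.6%, 23.6 to 49.1) against 3 of 20 (15.0%, 3.21 to 37.9). TFAP2C was found in 21 of 59 (35.6%, 23.6 to 49.1) against 16 of 20 (80.0%, 56.3 to 94.3), and its pooled level was 43.3 CPM against 103 CPM. The intervals of TFAP2C do not overlap, while those of DND1 do, and that of SOX17 in the NANOG-negative cells reaches 16.8%. DPPA3 was found in 3 of 59 against 0 of 20, DAZL in 3 of 59 against 2 of 20, and DDX4 in 3 of 59 against 1 of 20, with overlapping counting intervals. With the 78 EPI cells of at least 19000 counts thinned to that number, NANOG included, the TFAP2C shares were 22.5% with NANOG and 53.7% without, and those of DND1 8.91% and 2.77%. The differences in SOX17, DND1 and TFAP2C cannot be separated from embryo. Only 3 embryos hold both kinds of EPI cell: TFAP2C was found in 2 of 4 NANOG-positive against 4 of 4 NANOG-negative cells in E16-1, in 1 of 1 against 7 of 7 in E23, and in 4 of 11 (36.4%) against 1 of 4 (25%) in E25, the opposite order. E18 and E21, with 9 of 23 and 3 of 15 cells positive for TFAP2C, have no NANOG-negative EPI cell, and E16-2, with 4 of 5, has no NANOG-positive one. SOX17 was found in 0 of 4 against 0 of 4 cells in E16-1 and 0 of 11 against 0 of 4 in E25. In E23 it was found in 1 of 1 against 0 of 7. DND1 was found in 1 of 4 against 2 of 4 cells in E16-1 and 0 of 1 against 1 of 7 in E23. Both are the reverse of the pooled DND1 order. In E25 the order was the pooled one, with 5 of 11 against 0 of 4.

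Amnion genes were also found more often in the 20 NANOG-negative EPI cells, of which 16 held TFAP2C. TFAP2A, a sister gene used in amnion and surface ectoderm, was found in 15 of these 20 cells, and in 12 of the 51 NANOG-positive EPI cells outside the triple-positive group described further on. ISL1 was found in 13 of 20 against 6 of 51, and CDX2 in 14 of 20 against 5 of 51. The epiblast gene SOX2 was found in 2 of 20 against 30 of 51. These contrasts too cannot be separated from embryo, since E18 and E21 have no NANOG-negative EPI cell.

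**Figure D4:**
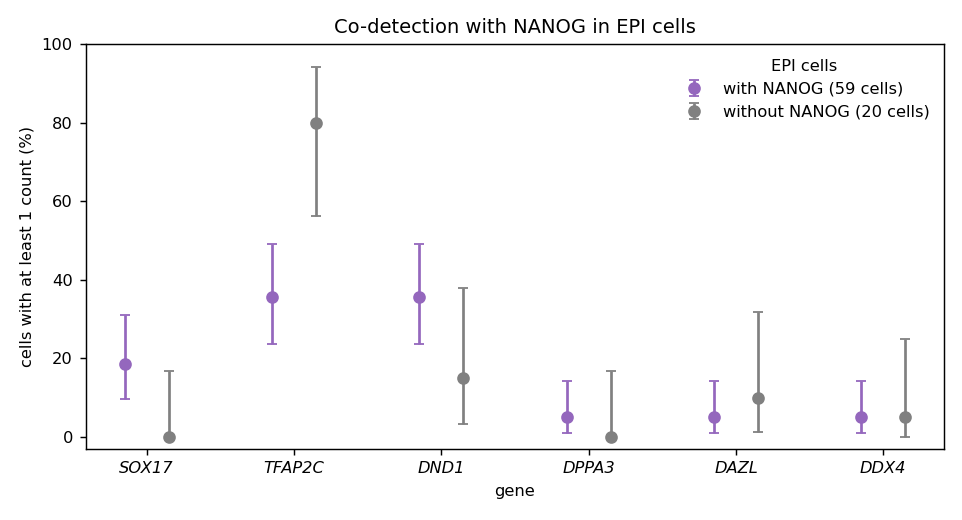
Share of EPI cells with at least 1 count of each gene (y axis, percent), for the 59 cells with NANOG (left point) and the 20 without (right point), with exact 95% binomial intervals that cover counting error only. SOX17 is found only in the cells with NANOG (18.6% against 0%), and TFAP2C is at 35.6% against 80.0%.

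Co-detection outside EPI was rare. Only 3 of 62 Endoderm cells held NANOG. Of these 2 also held SOX17, 2 held DPPA3, 1 held TFAP2C, 1 held DND1 and none held DAZL or DDX4, while among the 59 NANOG-negative Endoderm cells 31 held SOX17 and 25 DPPA3. In the ectoderm classes 7 of 180 cells held NANOG, 3 in Non-neural and 4 in Neural ectoderm. Of the 7, 2 held TFAP2C, 1 held DND1, 1 held DAZL and none held SOX17, DPPA3 or DDX4. For TFAP2C that is 28.6% (3.67 to 70.96) of the 7 NANOG-positive ectoderm cells, against 48 of 173 NANOG-negative ones (27.7%, 21.2 to 35.1). With 3 and 7 cells, these shares cannot separate the classes from each other.

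The 6 genes seldom met in 1 cell. No count of any was found in 2297 cells, 1 gene was found in 1170, 2 in 181, 3 in 28 and 4 in 6, and no cell held 5 or all 6. The 34 cells with 3 or 4 genes had a median total of 281045.5 counts, against 110457.5 over all cells, so depth moves with this number and its part was not tested. NANOG was found in 9 of the 28 and 5 of the 6. By class there were 8 in EPI, 5 each in EVT and EXMC, 4 in CTB, 3 each in Endoderm, PS and STB, 2 in Extraembryonic Mesoderm and 1 in Mesoderm. Of the pairs, SOX17 and TFAP2C shared 81 cells (34.8% of the SOX17 cells and 7.43% of the TFAP2C cells), and 21 of the 81 held NANOG.

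Asking for SOX17, TFAP2C and NANOG together, a definition set after these values were seen, gave 21 cells at 1 count of each, 15 at 2 counts and 10 at 5 counts. Of the 15 cells, 8 were annotated as EPI, 3 as EXMC, 2 as EVT, 1 as Endoderm and 1 as Extraembryonic Mesoderm, so 7 lay outside EPI. By embryo 6 came from E18, 3 from E21, 2 each from E16-2 and E23, and 1 each from E22 and E24. None came from E16-1, E20 or E25. Most of the 6 from E18 lay in 1 library, 40. The Extraembryonic Mesoderm cell comes from library 26, whose labels differ.

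These 15 cells carried several germ cell genes that had no part in choosing them, though not all such genes. KIT, the receptor that migrating germ cells need, was found in 15 of 15, against 20 of the 51 other NANOG-positive EPI cells and 7 of the 20 NANOG-negative ones. PRDM1, the repressor at the core of germ cell fate, was found in 11 of 15, against 9 of 51 and 3 of 20. NANOS3, an RNA-binding germ cell factor, was found in 9 of 15, against 4 of 51 and 2 of 20. The germ cell SOX gene SOX15 was found in 12 of 15, against 12 of 51 and 2 of 20, and stood at 153 CPM, against 31.9 and 4.49 CPM. PRDM14, also an early germ cell factor, did not set the 15 apart by detection. It was found in fewer of the 15 than KIT, PRDM1, NANOS3 or SOX15, with 32 counts in the E21 EPI cell and 0 in the E18 EVT cell. Over all of EPI it was found in 12 of 24 cells with DND1 and 29 of 55 without. SOX2, which primate germ cells lose, was found in none of the 15, which allows up to 20%, against 30 of 51 and 2 of 20. Of the genes that mark epiblast, ZIC2 was found in 4 of 15, against 39 of 51 and 5 of 20, and DNMT3B stood at 32.3 CPM, against 365 and 70.2 CPM. By detection DNMT3B was still present in most of the 15, with 59 counts in the E24 EPI cell. DNMT3A, another such gene, was also found in most of the 15 and did not set them apart by detection. Over all of EPI it was found in 19 of 24 cells with DND1 and 47 of 55 without. Since 7 of the 15 lie outside EPI, class differs as well in the contrasts of SOX2, ZIC2 and DNMT3B, and its part was not tested. SOX2 was found in 3.07% of all cells. The 15 cells were deeper, with a median total of 252363 counts against 173281 and 190158.5. With the cells of at least 19000 counts thinned to that number, PRDM1 was found in 43.7%, against 12.8% and 4.22%, KIT in 82.9%, against 21.7% and 16.6%, and SOX2 in 0%, against 36.4% and 8.14%.

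The 7 cells outside EPI were also set beside the 2280 other cells of their 4 classes. KIT was found in 7 of 7 against 217 of 2280, PRDM1 in 6 of 7 against 105, NANOS3 in 5 of 7 against 13 and SOX15 in 5 of 7 against 99, at a median total of 386868 against 101126.5 counts. In the 8 EPI cells KIT was found in 8, PRDM1 in 5, NANOS3 in 4 and SOX15 in 7, against 27, 12, 6 and 14 of the 71 other EPI cells. PDPN does not set the 15 apart by detection, since it was found in 70.7% of all cells and in 45 of the 51 and 19 of the 20 EPI cells above.

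Markers of other cell types were present in the same cells. Mesenchyme markers summed to 21897 CPM in the EXMC cell of E18, against 21991 CPM in the EXMC class, to 11199 CPM in the Extraembryonic Mesoderm cell, against 16553 CPM in its class, and to 10061 CPM in the Endoderm cell, against 1955 CPM in its class. Endoderm markers summed to 8978 CPM in the EPI cell of E24, against 227 CPM in EPI. Trophoblast markers summed to 2824 CPM in an EPI cell of E18 and to 4355 CPM in another, against 445 CPM in EPI. In the other EPI cells of E18 they summed to 36.1 and 19.8 CPM. Syncytiotrophoblast markers summed to 5583 CPM in the EVT cell of E23, against 1056 CPM in its class. No doublet caller was run, and the part of mixed or doublet cells was not tested.

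The 15 cells were not alike. The highest NANOG count was in an E18 cell annotated as EVT, with 169 counts of NANOG, 58 of TFAP2C, 30 of SOX17, 57 each of PRDM1 and NANOS3, 143 of KIT and 15 of DND1. Its trophoblast markers summed to 233 CPM, against 2099 CPM in the EVT class as a whole, but all 3 extravillous trophoblast markers were found in it, at 10029 CPM against 4673 CPM in the class. An E21 cell annotated as Endoderm held 31 counts of NANOG, 58 of TFAP2C, 20 of SOX17, 37 of PRDM1 and 57 of KIT together with 28 of FOXA2, an endoderm factor. By contrast the E24 EPI cell and the 2 EXMC cells of E16-2 had no count of NANOS3 or SOX15 and at most 1 of PRDM1, and 2 of those 3 held FOXA2. DND1 was found in 7 of 15 cells with between 1 and 15 counts. DPPA3 was found in 2 of 15, DAZL in 4 and DDX4 in 1, an E22 EPI cell with 12 counts beside 167 of NANOG, 41 of PRDM1 and 17 of NANOS3.

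**Figure D5:**
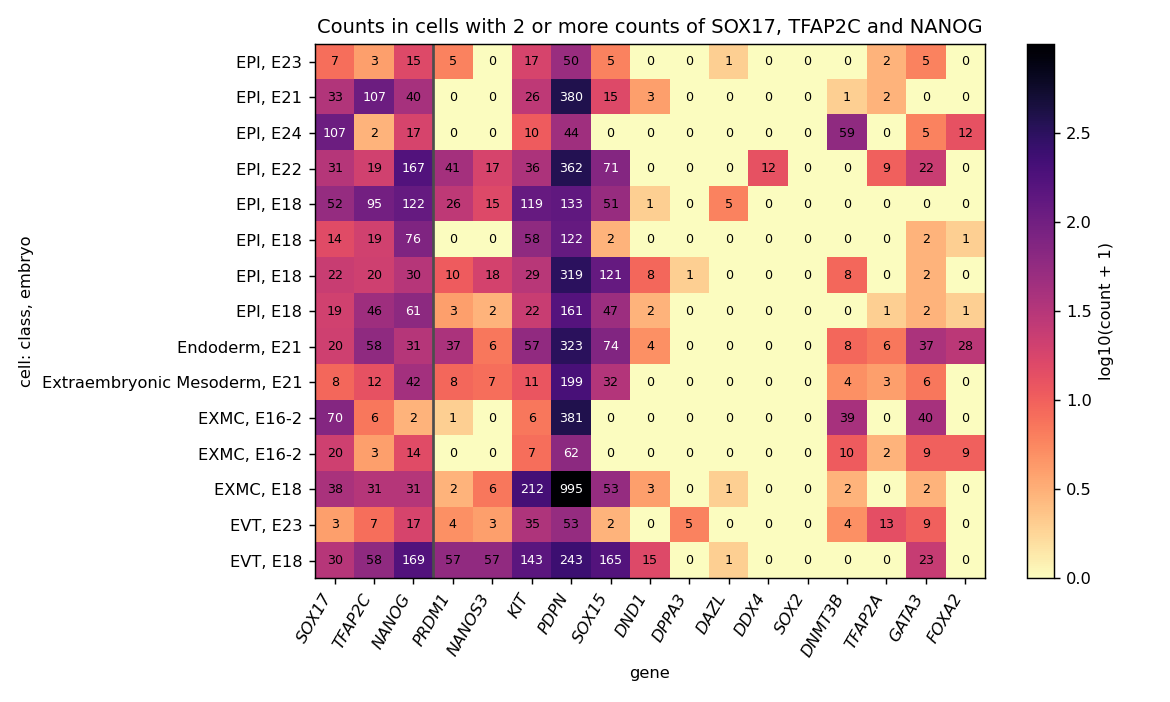
Rows are the 15 cells with at least 2 counts each of SOX17, TFAP2C and NANOG (the 3 columns left of the line, which chose them), named by class and embryo. Numbers are counts and colour is log10(count + 1). KIT and PDPN are found in all 15 cells (PDPN also in 70.7% of all cells) and PRDM1 in 11, while SOX2 is 0 in every row and DPPA3, DAZL and DDX4 are 0 in most.

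The genes most like each member were sought by Pearson correlation of log2(CPM + 10) over 112 sums of a library and class with at least 10 cells, from 41 libraries, 9 classes and 13942 named genes. Sums of a library share its preparation and depth, so r is a description. TFAP2C, with counts in 106 sums, was most like SHTN1 (r = 0.87), the trophoblast factor GATA3 (0.86), VAMP8 (0.85) and ADGRG1 (0.83). For the other 5 members the 4 highest r lay between 0.45 and 0.65, and the counts were sparse, so no likeness is read from them. The first names were URAD for SOX17, FCHO1 for DND1, SMLR1 for DPPA3, ABCG1 for DAZL and LSMEM1 for DDX4. No library had 10 Endoderm or EPI cells, so the classes where SOX17, DPPA3 and DND1 are highest are not in these sums.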

How the data were processed

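Gene counts of 3682 single cells were deposited as whole-number counts per gene, with a class and embryo for each cell. The submitters' processing notes name cutadapt 1.15, STAR 2.6.0a and HTSeq 0.10.0, and the genome build is not given in the sources used here. How doublets and duplicate reads were treated is not stated, and no doublet caller was run. Sums of counts over all cells of a library, or over the cells of a class where a library held at least 10, were formed, and the slope with day was tested with edgeR 4.0.16 (R 4.3.3; TMM, low counts filtered by filterByExpr, quasi-likelihood test, Benjamini-Hochberg adjusted p under 0.05), with DESeq2 1.42.0 as an alternative. The method was first tested on simulated data. Shares were computed with pandas 2.3.3 and scipy 1.17.1 under Python 3.11.15, and thinned by the exact hypergeometric formula to 19000 counts, leaving out shallower cells (1 of 79 in EPI). No cell name occurred more than once, and the files hold no barcode sequences. The 6 genes and the gene lists were chosen with earlier results of these data known. Named genes are the 6, NANOG, at most 4 called genes per list and fit by size of slope, and the 4 genes most like each member. Genes named within cells of a class, and the definition by SOX17, TFAP2C and NANOG, were chosen after their values were seen. The values of 1 gene of these lists are not reported here.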

Additional observations from a re-analysis of the deposited data

Results flagged for a closer look

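Of 39 groups of 4 to 10 libraries looked at, 9 had 1 library far from the others of its day, where chance flags about 1 in 20 groups. Most rest on few cells, and all 9 are in the sparse genes DAZL, DDX4, DND1 and DPPA3, for which that rate was not checked. DAZL stood at 0.109 CPM in library 7 of E16 (2 counts in 1 cell), against 0 in the other E16 libraries, and at 3.40 CPM in library 22 of E25 (23 counts in 1 cell), against at most 0.169 CPM. DDX4 stood at 1.51 CPM in library 19 of E21 (27 counts in 2 cells), against at most 0.139 CPM, and at 1.79 CPM in library 8 of E23 (25 counts in 1 cell), against at most 0.632 CPM. DND1 stood at 2.45 CPM in library 40 of E18 (40 counts in 8 cells), against at most 0.673 CPM, and at 2.03 CPM in library 31 of E22 (17 counts in 3 cells), against at most 0.609 CPM. DPPA3 stood at 1.76 CPM in library 3 of E16 (17 counts in 1 cell), against at most 0.244 CPM. It stood at 1.36 CPM in library 8 of E23 (19 counts in 5 cells), against 0 in the others, and at 7.25 CPM in library 22 of E25 (49 counts in 4 cells), against at most 0.564 CPM.

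The 2 libraries with differing labels, which entered no comparison between days, also held these genes above the limit that a count of 0 allows. In library 26 that limit was 0.436 CPM, and SOX17 stood at 7.41 CPM, TFAP2C at 4.22 CPM, DND1 at 0.872 CPM and DDX4 at 0.727 CPM. In library 27 the limit was 0.247 CPM, and SOX17 stood at 0.493 CPM and TFAP2C at 42.5 CPM.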

How the results depend on the processing

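Of 186 alternatives other than leaving out a library, 136 left their result on its side of the threshold or within its error. The number of genes called over all cells, 2435, became 1087 without E16, 1027 with the library code as a term, 1338 with the code of the cell names (chosen after seeing the data) and 0 with sums per embryo by edgeR, where 1543 had an unadjusted p under 0.05. In EXMC, 190 became 1008 without the filter, 388 with DESeq2, 57 without E16, 536 and 721 with the 2 codes and 0 per embryo. In CTB, 363 became 1200, 795, 741, 85, 85 and 0 in the same order. In EVT, 677 became 2047 without the filter, 1175 with DESeq2, 56 with either code and 0 per embryo, and the split of 420 higher and 257 lower became 503 and 188 with DESeq2 size factors. In Extraembryonic Mesoderm, 248 became 707 with DESeq2, 55 with either code and 2 per embryo. Leaving out 1 library gave 72 to 245 in EXMC, 192 to 741 in CTB, 379 to 806 in EVT and 109 to 1393 in Extraembryonic Mesoderm. The cause was not tested.

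The slope of NANOG turned to 0.26 with the code of the cell names. That of TFAP2C in EXMC turned to 0.11 without E16, 0.12 and 0.52 with the 2 codes and lay between -0.080 and 0.013 with 1 library left out (0.013 without library 6), and that in CTB to -0.65 and in EVT to -2.05 with either code. None of these passed the test in the fit reported. The TFAP2C level in EPI was 68.7 CPM as a mean over cells. The DPPA3 level in Endoderm was 236 CPM as a mean over cells, 156 CPM over 44 libraries and 21.1 CPM without E18. Thinned shares in NANOG-positive EPI cells were 22.5% for TFAP2C, 8.91% for DND1 and 0.492% for DPPA3, and in NANOG-negative ones 53.7% for TFAP2C and 2.77% for DND1. DDX4 at 2 counts was at 0% in NANOG-negative cells. Leaving out 1 library gave 65.5 to 84.2 CPM for SOX17 in Endoderm, 12.2 to 20.7 for SOX17 in EPI, 56.6 to 69.0 for TFAP2C in EPI, 3.26 to 4.82 for DND1 in EPI, 132 to 209 for DPPA3 in Endoderm and 1.11 to 3.75 for DDX4 in STB, and 0% to 5.88% for DDX4 in NANOG-negative EPI cells.

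No paired analysis was possible because each library number occurs on 1 day only. Depth limits DND1, DPPA3, DAZL and DDX4, which had too few counts to be tested over all cells.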
